A study of Mus musculus with 68 samples.

Results

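Gene expression in the resting zone of the newborn growth plate was set against that of the neighbouring proliferative zone at postnatal day 2 (P2). The samples are the ethanol-fixed P2 libraries labelled resting or proliferative, 17 of the 68 libraries of the series, of which 9 are resting and 8 proliferative. Libraries of at least 100000 counts were kept, libraries of 1 animal and zone were summed, and zones were paired by animal. This left 8 of the 17 libraries, each the sole library of its animal and zone above the minimum, as 4 resting sums (animals A, D, F and G) and 4 proliferative sums (animals A, D, E and G). Both zones came from animals A, D and G. The library just inside the minimum held 122788 counts (animal E, proliferative) and the one just outside held 98337 (animal C, proliferative).

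All groups come from mice of mixed background with no genetic change or treatment named in the labels. Growth plate cells were taken by laser capture from stained frozen sections and carried without RNA extraction into SMART-seq2, which makes cDNA of whole transcripts from few cells, followed by Tn5 tagmentation. The other groups of the series are the hypertrophic zone at P2, the same zones at postnatal day 28 (P28), 1 animal at day 3 (P3) and xylene-fixed P28 sections. The label of animal D names animals in the plural, so it may be a pool. A captured region can hold neighbouring cell types, and in such bulk samples fewer cells of a type and less RNA per cell cannot be told apart.

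The growth plate is the cartilage that lengthens long bones. Round resting chondrocytes at its end supply the flat, columnar proliferative chondrocytes, which then enlarge, mineralise their matrix and give way to bone. Parathyroid hormone-related protein (Pthlh) from the resting zone acts on its receptor Pth1r further down and holds back the enlargement, while Indian hedgehog (Ihh) from prehypertrophic cells keeps Pthlh high; FGF receptors, BMP and Wnt signals act on the same steps.

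Depth ran from 203304 to 3347722 counts in the 4 resting sums and from 122788 to 2309989 in the 4 proliferative sums. The resting sum was the deeper one in each of the 3 pairs (203304 against 140544 in A, 609052 against 508937 in D, 3347722 against 2309989 in G). Ribosomal RNA precursor (Rn45s) took 8.51% to 34.1% of the resting and 14.8% to 55.7% of the proliferative counts. The resting sum of animal G held 128 counts of Xist, the RNA of the inactive X chromosome, together with 747 of Y-linked genes, while its proliferative sum held 0 and 1071. Whether that resting library comes from 1 animal is therefore in doubt, and results without animal G are given below. Cartilage identity held in both zones: Col2a1, the main cartilage collagen, stood at 55126 ± 41657 CPM in the resting sums and 27196 ± 14746 CPM in the proliferative sums (mean ± SD, n = 4 each), and Sox9, the chondrocyte transcription factor, at 492 ± 120.1 CPM in the resting sums and 529.8 ± 153 CPM in the proliferative sums (mean ± SD, n = 4 each). CPM here are counts per 1000000 of the genes tested, after TMM scaling of library sizes.

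Of 6958 genes tested, 18 (0.259%) differed between the zones at an adjusted p under 0.05 by edgeR's quasi-likelihood test with the animal as a block and Benjamini-Hochberg adjustment. Of these, 7 were higher in the resting zone (0.101% of those tested) and 11 were lower (0.158%). The higher genes were Dcn, Meg3, Col3a1, Fgfr1, Srpx2, Serpine2 and Fat3, which encode matrix proteins, a growth factor receptor, a protease inhibitor, a giant cadherin and a long noncoding RNA. The lower genes were Panx3, Gdf10, Ppa1, Comp, Il17b, Alpl, Lsp1, Rn45s, Fxyd2, Pcsk6 and Pth1r, among them secreted signals, the PTHrP receptor and genes of mineralisation. At an unadjusted p under 0.05 stood 288 genes, 168 higher (2.41%) and 120 lower (1.72%), and DESeq2 called 13 higher (0.187%) and 20 lower (0.287%). Over all genes tested the log2 fold change was above 0 in 55% and below 0 in 45%, and the list counts given below are to be read against these shares. With RLE scaling in place of TMM the split was 1 higher and 11 lower, since 6 of the 7 higher genes moved to adjusted p of 0.0609 to 0.752. Animals E and F have a single zone each, so the animal block fits each of them exactly. They add levels, but nothing to the difference within animals and no residual to the spread estimate. Both still enter the low-count filter, the scaling and the mean levels used in the shared spread estimate. A call can therefore change without them, as that of Srpx2 did without animal F (adjusted p = 0.099 by edgeR). Without animal G 0 genes were called higher and 5 lower (Comp, Gdf10, Panx3, Ppa1 and Rn45s), with 118 genes at an unadjusted p under 0.05. Without animal D, 1 was called higher (Dcn) and 4 lower (Gdf10, Panx3, Pcsk6 and Ppa1).

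Animals A, D and E come from libraries deposited with 1 run of counts and F and G from libraries with 2 runs. Among the animals with 1 run 4 genes were called higher and 8 lower, 7 of them among the 18, and the animals with 2 runs hold 1 pair, which could not be fitted.

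**Figure D1:**
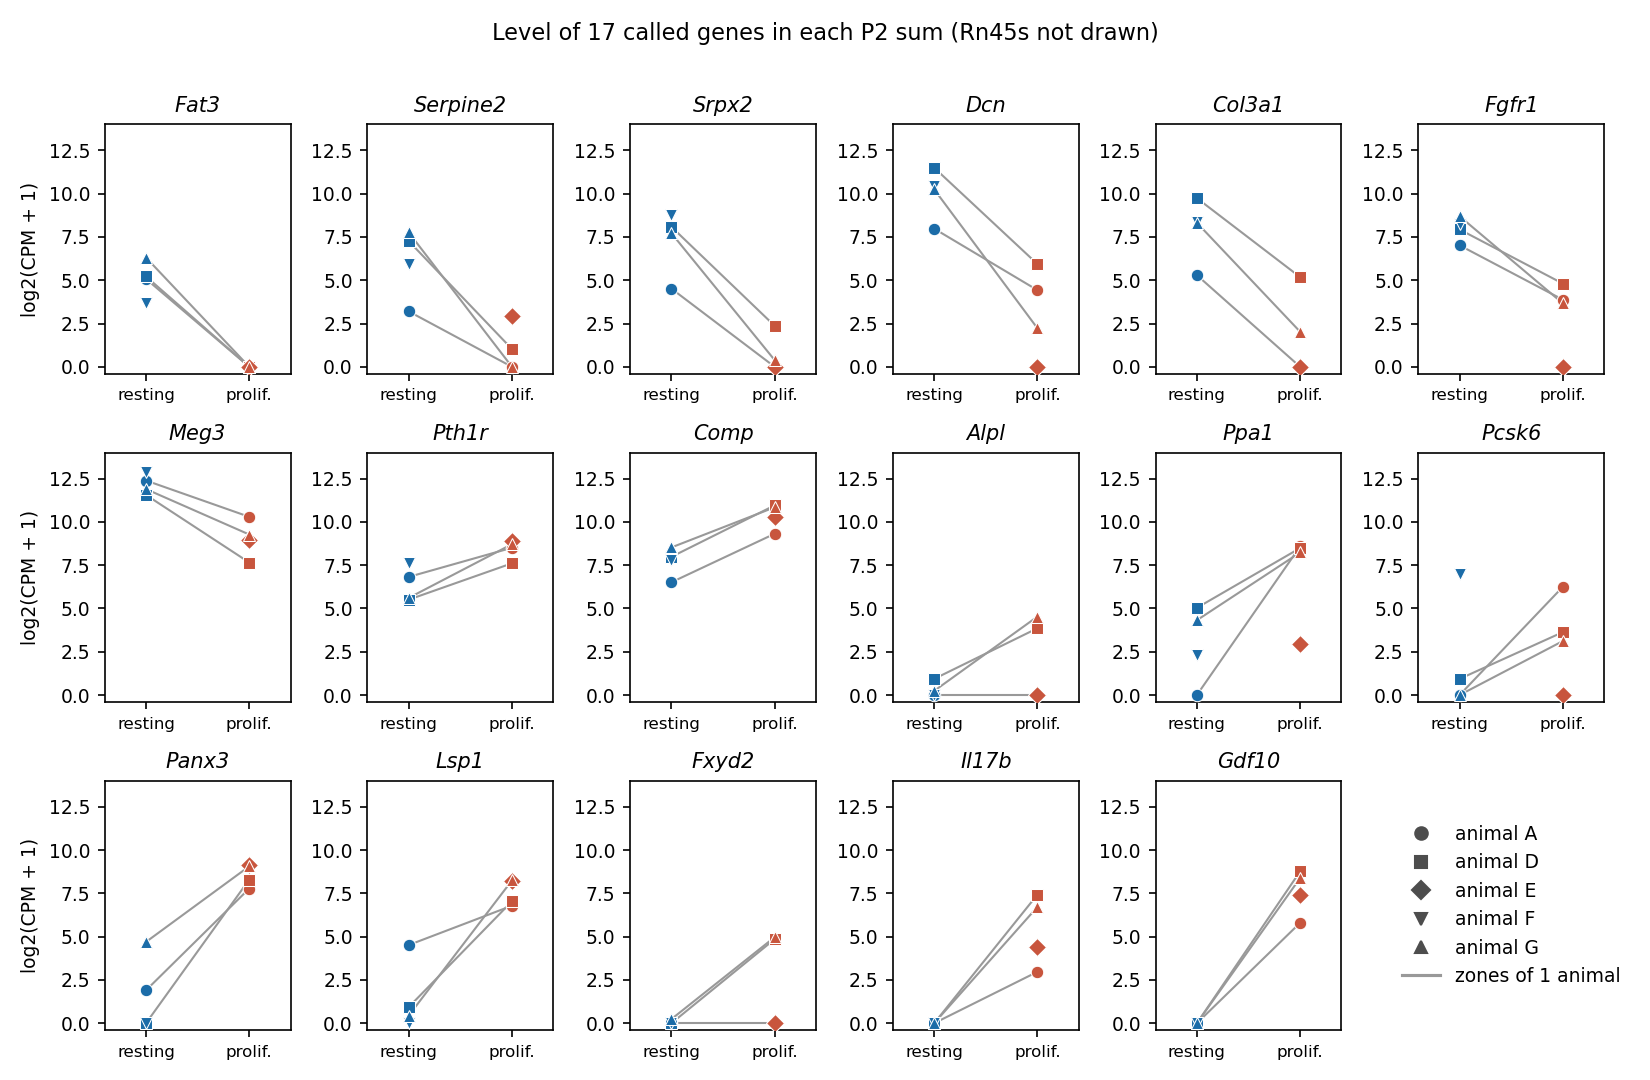
Level of 17 of the 18 called genes in each P2 sum, as log2 of TMM-normalised CPM plus 1 (vertical axis), in the resting (blue) and proliferative (red) zone; symbols mark the animal and lines join the zones of 1 animal. Gdf10 and Il17b lie at 0 in all 4 resting sums, and Fat3 at 0 in all 4 proliferative sums.

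Secreted signals were among the genes lower in the resting zone. Gdf10, a BMP-family ligand also called Bmp3b, had 0 counts in all 4 resting sums. It stood at 54.7, 436, 169.5 and 334 CPM in the proliferative sums of animals A, D, E and G. The groups did not overlap (adjusted p = 2.31e-06 by edgeR). With 3 counts taken as the most that the 4 resting sums together could hold, its pooled level was at least 1054-fold lower there. That bound pools all animals, with F included, and is not a bound for any single animal. Gdf10 stayed called in every fit that left out 1 animal. Gdf10 had been placed on the list of resting zone markers, so its direction here goes against that list. Il17b, an interleukin-17 family cytokine, likewise had 0 counts in all 4 resting sums. Its proliferative values were 6.84, 171, 20.3 and 104 CPM, so the groups did not overlap, although the value of animal A is 1 count. By the same pooled bound Il17b was at least 348-fold lower in the resting zone (adjusted p = 0.000787). It lost its call without P2 animal D (0.349) or P2 animal G (0.566), with the adjusted p of edgeR in parentheses here and below. Losses named below are mainly from fits that left out 1 animal. Most called genes also lost the call under some other setting, and these losses enter the totals at the end. Of the other members of the interleukin-17 list that were tested, Il17d and Il17ra, neither passed.

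Pcsk6, a protease that activates TGF-beta family precursors, was called lower in the resting zone, but its groups overlapped. Its resting values in animals A, D, F and G were 0, 0.908, 124 and 0 CPM and its proliferative values in A, D, E and G were 75.2, 11.4, 0 and 7.68 CPM. The high resting value belongs to animal F, which has no proliferative sum and so does not enter the difference within animals (log2 fold change -5.71 ± 1.32 SE, adjusted p = 0.00921). Pooled over all 8 sums the ratio went the other way, at 2.85 (95% exact interval 2.08 to 3.97), and the fit without the animal block gave a log2 fold change of 0.56. The call was lost without P2 animal A (0.232) or P2 animal G (0.718). Among 22 tested receptors, modulators and targets of the BMP and TGF-beta pathway, Pcsk6 was the 1 called gene by edgeR and by DESeq2, 1 was higher and 2 lower at an unadjusted p under 0.05, and the median was -0.20. Grem1, a secreted BMP antagonist, had 0, 60.8, 284 and 48.1 CPM in the resting sums and 0 counts in all 4 proliferative sums, and missed the threshold (adjusted p = 0.191). Of 5 tested ligands of these families 1 was called, Gdf10, with a list median log2 fold change of -0.45 (-1.13 with genes at 0 set to their bound), against 0.15 over all genes tested.

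The PTHrP receptor was lower in the resting zone. Pth1r stood at 112, 44.5, 196 and 47.8 CPM in the resting sums and at 362, 194, 475 and 418 CPM in the proliferative sums. The groups overlapped by the resting value of animal F, while in each of the 3 pairs the proliferative zone was higher (log2 fold change -2.31 ± 0.57 SE, adjusted p = 0.0312). Its call was lost without P2 animal A (0.186), P2 animal D (0.767), P2 animal G (1) or P28 animal B (0.105). The Pth1r call was also lost with no filter on low counts, with no animal block and with the paired P2 resting and proliferative sums only. It was lost as well at library minimums of 50000 and 20000 counts and among the animals with 1 run. The ligand Pthlh ran the opposite way in level. It had 0, 33.6, 7.23 and 11.99 CPM in the resting sums and 0 counts in all 4 proliferative sums, and did not pass (adjusted p = 0.352). Ihh was at the limit of detection, with 0 counts in the resting and 3 counts in the proliferative sums, all of them in animal D. Among 14 tested genes of the PTHrP and hedgehog list, 0 were higher and 1 was lower by edgeR, 1 in each direction had an unadjusted p under 0.05, and DESeq2 also called Pth1r alone. The list median was 0.13.

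Among FGF receptors, Fgfr1 was higher in the resting zone. It stood at 128, 243, 298 and 414 CPM in the resting sums and at 13.7, 26.98, 0 and 11.7 CPM in the proliferative sums. Every resting value was above every proliferative one (log2 fold change 3.91 ± 0.98 SE, adjusted p = 0.032). The call was lost without P2 animal A (0.121), P2 animal D (0.67), P2 animal G (1), P28 animal A (0.0553) or P28 animal B (0.076). Fgfr3, the receptor that restrains chondrocyte proliferation, had 150.4, 129.9, 313 and 313 CPM in the resting zone and 144, 722, 617 and 726 CPM in the proliferative zone, and the groups overlapped (log2 fold change -1.22 ± 0.76 SE, adjusted p = 1). Of 5 tested genes of the FGF pathway, Fgfr1 was the 1 called, and Fgfr2 and Fgfrl1 had log2 fold changes of 2.02 ± 1.61 and 1.97 ± 1.13 SE, neither passing.

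Matrix genes moved in both directions. Dcn encodes decorin, a small leucine-rich proteoglycan that binds collagen fibrils and TGF-beta. It stood at 252, 2894, 1413 and 1217 CPM in the resting sums and at 20.5, 60.2, 0 and 3.69 CPM in the proliferative sums, with no overlap (log2 fold change 6.08 ± 0.99 SE, adjusted p = 2.31e-06). The call held in 8 of the 9 fits that left out 1 animal and missed without P2 animal G (0.0621). Col3a1, a fibrillar collagen of loose connective tissue, had 38.3, 855, 332 and 319 CPM in the resting zone and 0, 35.3, 0 and 3.07 CPM in the proliferative zone. These groups did not overlap either (log2 fold change 5.27 ± 1.32 SE, adjusted p = 0.032), and the call was lost without P2 animal A (0.0846), P2 animal D (0.809), P2 animal G (1) or P28 animal B (0.0534). Comp, a pentameric matrix protein that binds cartilage collagens, ran the other way. It stood at 90.2, 252, 219 and 367 CPM in the resting sums and 636, 1983, 1220.4 and 1836 CPM in the proliferative sums, where every value was above every resting one (log2 fold change -2.73 ± 0.53 SE, adjusted p = 0.000409). Comp was lost without P2 animal A (0.081) or P2 animal D (0.387).

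Among 11 tested small leucine-rich proteoglycans, Dcn alone was called, 10 had a log2 fold change above 0, and the list median was 1.25. Prelp, a member that anchors matrix to basement membranes, was the exception in sign. Its 334, 105, 80.4 and 337 CPM in resting sums lay below the 875, 1671, 1132 and 927 CPM of proliferative sums without overlap, just short of the threshold (log2 fold change -2.44 ± 0.64 SE, adjusted p = 0.0538). Epyc, the epiphyseal proteoglycan epiphycan, had 112, 2155, 547 and 1589 CPM in the resting zone and 0, 379.8, 0 and 554 CPM in the proliferative zone, which overlapped (log2 fold change 2.85 ± 0.86 SE, adjusted p = 0.191). Of the 22 tested genes of cartilage matrix and chondrocyte identity, 0 were higher and 1, Comp, was lower by edgeR, with 1 higher and 2 lower at an unadjusted p under 0.05 and Comp alone called by DESeq2. That list had a median of 0.08, and Acan, which encodes the main aggregating proteoglycan, had a log2 fold change of -0.69 ± 0.45 SE.

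Dcn and Col3a1 also mark perichondrium, the fibroblast-like sheath around cartilage. Of the 21 genes of that marker list 9 were tested, 2 were called higher (Dcn and Col3a1) and 0 lower, 3 and 1 had an unadjusted p under 0.05, and DESeq2 called the same pair. The summed level of the list ran from 1124 to 6980 CPM (median 4402) in the resting sums and from 882 to 1245 CPM (median 1016) in the proliferative sums. Twist2, Dpt, Mfap5 and Ly6a had 0 counts in every sum of both zones, while Thy1, Tnn and Col14a1 had 51, 90 and 172 counts in the resting sums and 0 in the proliferative sums. Col15a1, of the same list, did not pass (adjusted p = 1), and its proliferative values of 95.8, 80.9, 420.4 and 159 CPM lay above its resting values of 35.5, 9.08, 5.87 and 12.2 CPM. Col15a1 was over 2-fold lower in the resting zone in each of the 3 pairs, while Col1a1 and Col1a2 were over 2-fold higher in each. Col1a2 had 227, 1627, 1757 and 691 CPM in the resting and 54.7, 267, 142 and 280 CPM in the proliferative sums. Its groups overlapped and it did not pass (log2 fold change 1.91 ± 0.75 SE, adjusted p = 0.711 by edgeR). Of the 9 tested genes 8 had a log2 fold change above 0 and 1 below, and the median of the list was 1.86. What part perichondrial cells have in the Dcn and Col3a1 differences was not tested. The articular cartilage list, 12 genes of which 1 was tested, summed to 32.8 to 230 CPM in resting and 1.84 to 20.3 CPM in the proliferative zone, and Abi3bp, its tested gene, had 0, 77.2, 18.1 and 65.3 CPM in resting sums and 0 counts in proliferative ones (adjusted p = 0.219).

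Further secreted and surface genes were higher in the resting zone. Srpx2, a secreted sushi-repeat protein on the Wnt pathway list, stood at 21.9, 271, 428 and 209 CPM in the resting zone and 0, 4.15, 0 and 0.307 CPM in the proliferative zone, with no overlap (log2 fold change 7.28 ± 1.85 SE, adjusted p = 0.0327). Serpine2, an inhibitor of thrombin and plasminogen activators, had 8.2, 153, 59.2 and 216 CPM in resting sums and 0, 1.04, 6.78 and 0 CPM in the proliferative zone. With 2 counts in all proliferative sums together, its pooled ratio was 368 (95% exact interval 102 to 3038), and it was called (adjusted p = 0.0327). Fat3, a giant cadherin of the planar polarity system, had 32.8, 36.3, 11.7 and 78.4 CPM in resting sums and 0 counts in all 4 proliferative sums. Pooled over the sums of each zone, it was at least 83.7-fold higher (adjusted p = 0.0327). Srpx2 lost the call without P2 animal A (0.0607), P2 animal D (0.757), P2 animal F (0.099), P2 animal G (1) or P28 animal B (0.0508). Serpine2 lost it without P2 animal D (0.689), P2 animal G (1) or P28 animal B (0.0603), and Fat3 without P2 animal A (0.249), P2 animal D (0.797), P2 animal G (1), P28 animal A (0.0553) or P28 animal B (0.0569).

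The same direction was seen in related genes that did not pass. Frzb, a secreted Wnt antagonist, had 73.8, 629, 598 and 66.9 CPM in the resting zone and 6.84, 18.7, 0 and 0 CPM in the proliferative zone without overlap (log2 fold change 5.26 ± 1.35 SE, adjusted p = 0.11). Dchs1, the partner cadherin in Fat signalling, had 21.9, 26.3, 76.3 and 23.3 against 0, 2.08, 0 and 0.614 CPM, again without overlap (adjusted p = 0.997). Over 17 tested Wnt pathway genes 1 was called higher and 0 lower by edgeR, 2 were higher and 1 lower at an unadjusted p under 0.05, DESeq2 called Srpx2 alone, and the median was 0.70. Over 7 tested genes of the Fat cadherin and planar polarity list Fat3 alone was called by either tool, 2 were higher and 0 lower at an unadjusted p under 0.05, and the median was 1.003. Vcan, the large proteoglycan versican, stood at 126, 311, 65.9 and 38.8 CPM in resting sums and had 1 count in all proliferative sums, in animal A (adjusted p = 0.0752). Clmn, which encodes the membrane protein calmin, had 46.5, 40.9, 108 and 59.6 CPM in resting sums and 0 counts in proliferative sums. Pooled over the sums of each zone, it was at least 103-fold higher (adjusted p = 0.106).

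Several genes that mark the approach to hypertrophy and mineralisation were called lower in the resting zone. Panx3, a channel protein of prehypertrophic chondrocytes and osteoblasts, stood at 2.73, 0, 0 and 24.9 CPM in the resting sums and 219, 313, 563 and 534 CPM in the proliferative sums, with no overlap (log2 fold change -5.99 ± 0.94 SE, adjusted p = 1.62e-06). It was called in all 9 fits that left out 1 animal, and the call was lost with no animal block and with the P3 animal added (adjusted p up to 0.13). Ppa1, a pyrophosphatase that yields phosphate, had 0, 31.8, 4.06 and 18.97 CPM in the resting zone and 383, 358, 6.78 and 300.1 CPM in the proliferative zone. Its groups overlapped because animal E was low, and all 3 pairs ran the same way (log2 fold change -5.13 ± 0.91 SE, adjusted p = 3e-05), with the call lost without P2 animal A (0.0846). Alpl, the tissue-nonspecific alkaline phosphatase that mineralisation needs, was low in both zones, with 0, 0.908, 0 and 0.179 CPM in the resting zone and 0, 13.5, 0 and 22.1 CPM in the proliferative zone. Animal A had 0 counts of Alpl in both zones, so the difference rests on D and G, with a pooled ratio of 0.0115 (95% exact interval 0.00137 to 0.0427) and adjusted p = 0.00153, and the call was lost without P2 animal D (0.113) or P2 animal G (1). Smpd3, a sphingomyelinase needed for matrix mineralisation, had 84.8, 54.5, 63.2 and 63 CPM in the resting zone and 438, 308, 88.1 and 345 CPM in the proliferative zone, without overlap but short of the threshold (log2 fold change -2.44 ± 0.68 SE, adjusted p = 0.087).

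Of 15 tested prehypertrophic and hypertrophic markers 11 had a log2 fold change below 0; 0 were called higher and 3 lower (Panx3, Pth1r and Alpl) by edgeR, 0 higher and 7 lower at an unadjusted p under 0.05 (2.41% and 1.72% of all genes tested), and DESeq2 called the same 3. The median log2 fold change of the list was -1.49, against 0.15 over all genes tested. Late markers were near 0 in both zones: Col10a1, the collagen of hypertrophic cartilage, had 0, 0.908, 2.71 and 4.3 CPM in the resting zone and 0, 7.26, 20.3 and 3.07 CPM in the proliferative zone, and Mmp13 had 0 counts in both. Of 14 tested mineralisation and phosphate genes 10 were below 0; 0 were called higher and 3 lower (Alpl, Ppa1 and Panx3), 0 and 4 at an unadjusted p under 0.05, with the same 3 called by DESeq2 and a median of -1.05.

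Values of the P2 hypertrophic sums of animals A, C, D and G give the third zone for these genes, as a description. Alpl stood there at 1091, 72.1, 1377 and 1629.6 CPM and Pth1r at 5531, 2105, 3501 and 4752 CPM, above both other zones in A, D and G. Gdf10 was at 0, 0, 4.93 and 75.96 CPM and Il17b at 0, 0, 4.93 and 18.2 CPM, so that in animals A, D and G both were highest in the proliferative zone. Fgfr1 was at 237, 216, 544 and 474 CPM in the hypertrophic sums, so its low point in A, D and G was the proliferative zone. Dcn stayed low there, at 28.5, 0, 9.85 and 5.73 CPM, and Srpx2 had 0 counts in all 4 hypertrophic sums.

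Imprinted transcripts included 1 called gene. Meg3, a maternally expressed long noncoding RNA at chr12:109540996-109571729 (GRCm38.p6), stood at 5359, 3010.4, 7619 and 3802 CPM in the resting sums and 1252, 200.3, 488 and 616 CPM in the proliferative sums. Every resting value was above every proliferative one (log2 fold change 2.68 ± 0.63 SE, adjusted p = 0.0112), and the call was lost without P2 animal A (0.0743), P2 animal D (0.951) or P2 animal G (0.721). The Meg3 call was also lost under RLE scaling, with DESeq2, with no animal block, at a library minimum of 20000 counts and with the P3 animal added. Rian, a noncoding RNA of the same imprinted domain at chr12:109603945-109661716, had 21.9, 265, 326 and 153 CPM in the resting zone and 0, 11.4, 0 and 11.98 CPM in the proliferative zone without overlap (log2 fold change 4.47 ± 1.60 SE, adjusted p = 0.463). Dlk1, the paternally expressed protein-coding gene of this domain at chr12:109452485-109463336, had 186, 1749, 1195 and 915 CPM in the resting zone and 144, 174, 13.6 and 46.7 CPM in the proliferative zone, again without overlap (log2 fold change 3.05 ± 0.94 SE, adjusted p = 0.206). These neighbours on chromosome 12 thus had the same order of levels, and of them Meg3 alone passed.

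Other imprinted growth genes had overlapping values in the zones. Igf2, the fetal growth factor, had 1766, 4397, 9485 and 5779 CPM in the resting zone and 1874, 4456, 1329 and 5147 CPM in the proliferative zone (log2 fold change 0.01 ± 0.53 SE, adjusted p = 1). H19, the noncoding RNA beside it, had a log2 fold change of -0.45 ± 0.50 SE. Mest stood at 249, 1305, 1169 and 878 CPM in the resting zone and 61.6, 114, 359 and 57.7 CPM in the proliferative zone, which overlapped (log2 fold change 3.13 ± 0.94 SE, adjusted p = 0.191). Of 23 tested genes of this list 1 was called higher and 0 lower by edgeR, 4 were higher and 0 lower at an unadjusted p under 0.05, DESeq2 called 0, and the median was 0.89.

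Promoter sequence was read for the called genes from RefSeq tables on GRCm38.p6, which held 10 of the 18. The 250 bases before each promoter start given there were searched on both strands. The motifs were the core TGTGGT bound by RUNX factors, the core AACAAT bound by SOX factors and the cAMP response element TGACGTCA. The last was added after the sequences had been seen. The window of Fat3 lies inside the listed gene and that of Srpx2 runs past the listed gene start, so neither is wholly upstream. Each motif was found in 1 of the 10 windows, against 14% of 32851 windows of all genes for the RUNX core, 9.4% for the SOX core and 1.5% for the cAMP element. The windows of the called genes with a match, Meg3 (RUNX core 225 bases and cAMP element 57 bases before the start) and Col3a1 (SOX core on each strand, from 196 and 192 bases before it, overlapping), are shown with matches in capitals, and that of Gdf10, the gene with the steepest fall, is shown for comparison with no match. All are on the forward strand, at chr12:109540746-109540995, chr1:45311288-45311537 and chr14:33923337-33923586, and a match is a description of letters and no evidence of binding.
Meg3: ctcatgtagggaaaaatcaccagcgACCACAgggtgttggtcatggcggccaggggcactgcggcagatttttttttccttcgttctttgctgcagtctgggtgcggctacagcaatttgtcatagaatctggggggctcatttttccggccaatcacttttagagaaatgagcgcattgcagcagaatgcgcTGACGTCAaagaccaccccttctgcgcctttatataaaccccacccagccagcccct
Col3a1: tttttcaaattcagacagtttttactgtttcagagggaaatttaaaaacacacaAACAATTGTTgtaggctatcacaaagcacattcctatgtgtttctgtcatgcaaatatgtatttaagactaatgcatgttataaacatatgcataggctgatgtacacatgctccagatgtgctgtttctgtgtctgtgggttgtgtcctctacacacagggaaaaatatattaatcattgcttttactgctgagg
Gdf10: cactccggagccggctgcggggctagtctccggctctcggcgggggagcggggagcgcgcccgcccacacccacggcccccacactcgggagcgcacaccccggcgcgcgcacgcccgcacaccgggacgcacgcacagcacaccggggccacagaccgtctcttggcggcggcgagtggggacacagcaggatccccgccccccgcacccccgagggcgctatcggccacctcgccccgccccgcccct

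Of 18 listed resting zone markers 16 were tested, and 12 of them had a log2 fold change above 0, against 55% of all genes tested; 0 were called higher and 1 lower (Gdf10) by edgeR, 4 were higher and 1 lower at an unadjusted p under 0.05, and DESeq2 called Gdf10 alone. The median log2 fold change was 1.15. Ucma, a secreted protein of upper-zone chondrocytes, had 719, 1713, 1797 and 1482 CPM in the resting zone and 178, 258, 136 and 245 CPM in the proliferative zone, and although every resting value was above every proliferative one it did not pass (log2 fold change 2.45 ± 0.73 SE, adjusted p = 0.191). Apoe, an apolipoprotein, had 16.4, 12.7, 5.87 and 8.23 CPM in resting sums and 0 counts in all 4 proliferative sums. Pooled over the sums of each zone, it was at least 12.8-fold higher (adjusted p = 0.0752). Sfrp5, a Wnt antagonist used as a marker of these cells, had 0, 144, 40.6 and 137 CPM in the resting zone and 0, 31.1, 6.78 and 117 CPM in the proliferative zone, which overlapped (log2 fold change 1.42 ± 1.70 SE, adjusted p = 1).

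Of the remaining called genes, Lsp1, a leukocyte actin-binding protein, was lower in the resting zone. It had 21.9, 0.908, 0 and 0.358 CPM in the resting sums and 109, 131, 298 and 303 CPM in the proliferative sums without overlap (log2 fold change -6.23 ± 1.34 SE, adjusted p = 0.00289), and lost the call without P2 animal D (0.616) or P2 animal G (1). Lsp1 is also on the osteoclast and macrophage marker list, 13 genes in the table of which 2 were tested. The list summed to 0 to 41.01 CPM in the resting zone. Its proliferative sums in animals A, D, E and G were 116, 173, 366 and 306 CPM, most of it Lsp1 itself. Ctsk, the other tested gene, had 125 resting and 48 proliferative counts and did not pass (log2 fold change 0.54 ± 2.27 SE). Cd68, C1qa, C1qb, Tyrobp, Cd14 and Mmp9 had 0 counts in every sum of both zones. Acp5, Lyz2 and C1qc had 0 counts in the resting sums and 1 count each over the proliferative sums, Csf1r had 2 and 0, and Ptprc, the pan-leukocyte marker, had 8 and 11. What part such cells have in the Lsp1 difference was not tested. Fxyd2, a regulator of the sodium pump, had 1 count in all resting sums together and 0, 28.02, 0 and 30.4 CPM in the proliferative sums, so the difference rests on D and G, with a pooled ratio of 0.00386 (95% exact interval 9.71e-05 to 0.0219) (adjusted p = 0.00831). Its call was lost without P2 animal D (0.757) or P2 animal G (0.892).

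Rn45s was itself called lower in the resting zone, at 124218, 47071, 343866 and 77859 CPM in the resting and 535738, 78235, 370960.0 and 155937 CPM in the proliferative sums. Its groups overlapped, each pair was higher in the proliferative zone (log2 fold change -1.25 ± 0.27 SE, adjusted p = 0.004), and the call was lost without P2 animal A (1) or P2 animal D (0.757). The Rn45s call was also lost with DESeq2, with no animal block, under each of the other library minimums and with the P3 animal added. With Rn45s, Lars2 and Glra2 removed from the table, all 17 other called genes were called again. When the zones of each animal were thinned to 1 total, all 18 called genes were called again.

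Red blood cell markers were scarce in both zones, while vessel markers varied between animals. Of the red blood cell list 6 of 8 genes had 0 counts in the sums of each zone, and the list summed to at most 28 CPM in resting and 23.4 CPM in the proliferative zone. Endothelial markers summed to 1.35 to 76.6 CPM in resting and 2.77 to 325 CPM in the proliferative zone, where animals A and E had 103 and 325 CPM. Osteoblast markers summed to 11.3 to 659 and 5.53 to 239 CPM, with Bglap, Bglap2, Bglap3 and Sost at 0 in both. The highest sum of each zone was that of animal A. There Phex had 358 CPM in the resting and 171 CPM in the proliferative sum, and 0 counts in all other sums. Ibsp had 153 CPM in the resting sum of animal A. Col1a1, of the same list, was over 2-fold higher in the resting zone in each of the 3 pairs but was not called (log2 fold change 1.86 ± 1.19 SE). Tendon markers summed to 219 to 2640 and 322 to 1143 CPM with Scx, Kera and Thbs4 at 0 in both. Most of the tendon sum was Fmod, at 159, 1092, 2632 and 1519 CPM in the resting and 198, 1027, 515 and 1143 CPM in the proliferative sums. Muscle markers summed to 38.3 to 142 and 42.1 to 475 CPM with Ckm, Des and Atp2a1 at 0 in both, and fat markers to 0 to 57.4 and 6.84 to 63.3 CPM with 5 of 6 genes at 0. In these 6 lists 0 tested genes were called by edgeR or DESeq2 and 0 had an unadjusted p under 0.05. The tested genes numbered 1 (red blood cell), 1 (endothelium), 3 (osteoblast), 2 (tendon), 3 (muscle) and 1 (fat). So few genes cannot show whether such cells differ between the zones.

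Genes of dividing cells were not called. Of 34 tested cell cycle and mitosis genes 0 were called in either direction by edgeR or DESeq2 and 0 had an unadjusted p under 0.05, with 18 log2 fold changes above 0 and 16 below and a median of 0.19. Mki67, the proliferation antigen, had 142, 56.3, 550.1 and 239 CPM in the resting zone and 321, 81.97, 6.78 and 309 CPM in the proliferative zone (log2 fold change -0.69 ± 0.98 SE, adjusted p = 1). Among 6 tested cyclin-dependent kinase inhibitors and pocket proteins 0 were called by either tool and 1, Cdkn1a, had an unadjusted p under 0.05. Cdkn1a, which encodes the inhibitor p21, had 0, 2.72, 0 and 0.179 CPM in the resting zone and 6.84, 32.2, 0 and 42.7 CPM in the proliferative zone (log2 fold change -5.25 ± 1.62 SE, adjusted p = 0.206).

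Of 18 tested genes of the growth hormone and IGF pathway 12 had a log2 fold change above 0, against 55% of all genes tested; 0 were called by edgeR or DESeq2, 7 were higher and 0 lower at an unadjusted p under 0.05 (2.41% and 1.72% of all genes tested), and the median was 0.71. Igfbp7, an IGF-binding protein, had 13.7, 208, 163 and 104 CPM in the resting zone and 0, 30.1, 0 and 3.38 CPM in the proliferative zone (log2 fold change 3.90 ± 1.48 SE, adjusted p = 0.611). Pappa, the protease that releases IGF from its binding proteins, had 254, 111, 0 and 106 CPM in resting sums, with 0 in animal F, and 0, 7.26, 0 and 8.29 CPM in the proliferative zone (log2 fold change 4.57 ± 1.57 SE, adjusted p = 0.375). Among 18 tested genes of the mTOR complex 1 pathway 0 were called by either tool, 1 was higher and 2 lower at an unadjusted p under 0.05, and the median was 0.64.

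Metabolic lists are set against 45% of all tested genes with a log2 fold change below 0. In glycolysis and hypoxia, 17 of 24 tested genes had a log2 fold change below 0 (median -0.70); 1, Ppa1, was called lower and 0 higher by edgeR and by DESeq2, and 0 were higher and 2 lower at an unadjusted p under 0.05. Car12, a carbonic anhydrase induced by hypoxia, was the second of these, at 8.2, 3.63, 0 and 4.83 CPM in the resting zone and 34.2, 198, 40.7 and 234 CPM in the proliferative zone without overlap (log2 fold change -4.53 ± 1.24 SE, adjusted p = 0.0752). In cholesterol synthesis and uptake 17 of 19 were below 0 (median -1.48), with 0 called by either tool and 0 at an unadjusted p under 0.05. In amino acid response and serine synthesis 13 of 15 were below 0 (median -1.34), with 0 called by either tool and 1, Aldh1l2, at an unadjusted p under 0.05. Immediate early genes, which respond fast to stress and handling, were below 0 in 10 of 10 tested (median -1.88, or -1.64 with Egr1 at its bound), with 0 called by either tool and 2, Klf2 and Klf4, at an unadjusted p under 0.05.

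Cytosolic ribosomal protein genes were below 0 in 38 of 48 tested (median -0.77), with 0 called by either tool and 0 at an unadjusted p under 0.05. Nuclear genes of oxidative phosphorylation had a median of -0.16 over 68 tested, with 0 called by either tool and 1, Ndufb6, higher at an unadjusted p under 0.05. The secretory pathway had a median of -0.36 over 29 tested and glycosaminoglycan synthesis one of -0.31 over 25, with 0 called by either tool and 0 and 1 (Csgalnact2, higher) at an unadjusted p under 0.05. Integrins and surface markers of skeletal stem cells had a median of 0.88 over 16 tested, with 0 called by either tool and 1, the chemokine Cxcl12, higher at an unadjusted p under 0.05. Matrix proteases and their inhibitors had a median of 0.10 over 21 tested, with Serpine2 alone called by either tool, and 2 higher and 4 lower at an unadjusted p under 0.05. Notch pathway genes, 5 tested, had a median of 0.19, with 0 called by either tool and 0 at an unadjusted p under 0.05.

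**Figure D2:**
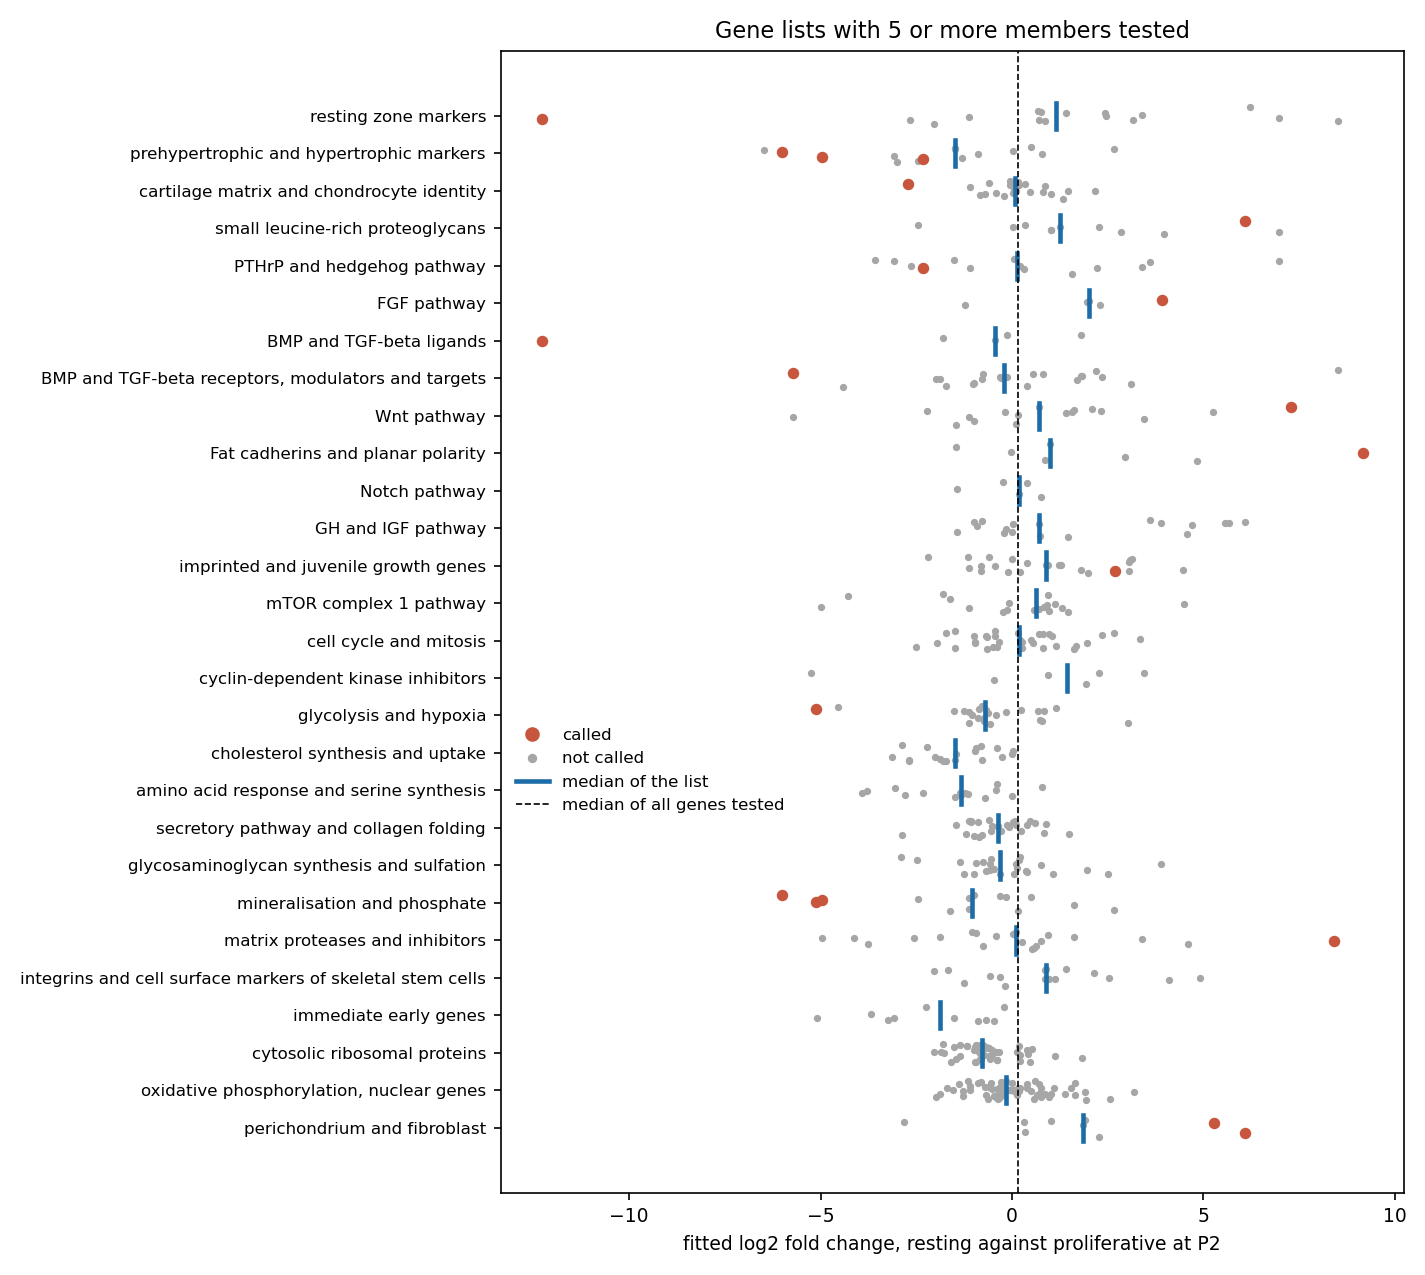
Fitted log2 fold change of each tested member, resting against proliferative at P2 (horizontal axis), for the lists with 5 or more members tested; red points were called at an adjusted p under 0.05, blue bars are list medians and the dashed line is the median of all genes tested (0.15). Medians run from -1.88 for immediate early genes to 2.02 for the FGF pathway, and values of genes with 0 counts in a zone depend on the prior count of the fit.

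Within the pairs, 113 genes (1.62% of those tested) were over 2-fold higher in the resting zone in each of animals A, D and G on the log2(CPM + 10) scale, and 59 (0.848%) were over 2-fold lower in each. The 10 genes next in rank with 1 direction in every pair missed the threshold, 5 with higher fitted values in the resting zone (Apoe, Vcan, Clmn, Frzb and Ucma) and 5 with lower ones (Prkg2, Prelp, Car12, Smpd3 and Pdk4). Prkg2, the cGMP-dependent kinase that chondrocytes need to enter hypertrophy, had 19.1, 3.63, 1.81 and 0.358 CPM in the resting zone and 75.2, 92.3, 0 and 267 CPM in the proliferative zone, overlapping through animal E (log2 fold change -4.52 ± 1.19 SE, adjusted p = 0.0538). Pdk4, a kinase that holds back pyruvate oxidation, was seen in animal F of the resting sums (50.6 CPM) and mainly in animal A of the proliferative sums (356 CPM), and did not pass (adjusted p = 0.189).

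Libraries that had no part in the zone difference fitted above allow the called genes to be read again. The P3 animal, 1 day older, gave 2182195 resting and 2687484 proliferative counts, and animals E and C of P2 gave pairs in which at least 1 library was under the minimum. Their values are CPM over all counts outside Rn45s, Lars2 and Glra2, and Rn45s is left aside, which leaves 17 called genes. In the P3 animal 17 of 17 had the same direction as in the fit and 17 were over 2-fold, against 56.8% and 27.8% of all tested genes with counts. In animal E, where 14 of the 17 had counts, 14 of 14 had the same direction and 14 were over 2-fold, against 51.9% and 45.4% of all genes, with a single count behind Ppa1. In animal C 14 of 15 had the same direction, against 53.8% of all genes; Pcsk6 was the other way, and Pcsk6, Panx3 and Serpine2 rest on 1 count each. In animal B, with 2661 proliferative counts outside those symbols, 5 of 7 did, and Comp and Pcsk6, with 1 count each, did not.

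Values of single genes follow. In the P3 animal Gdf10 had 0 resting and 638 proliferative counts, Il17b 0 and 631, Panx3 2 and 1562, and Srpx2 552 and 0. Dcn stood at 1756 CPM in its resting and 82.9 CPM in its proliferative library, Fgfr1 at 718 and 68.7 CPM, Meg3 at 8411 and 539 CPM, and Pth1r at 251 and 1079 CPM. In animal E, counts of Panx3 were 0 in the resting and 83 in the proliferative library, those of Gdf10 0 and 25, of Meg3 946 and 72, and of Col3a1 155 and 0. Of the 113 genes higher in each pair, 92 (81.4%) had the same direction in the P3 animal and 63 (55.8%) were over 2-fold, and of the 59 lower in each pair, 49 (83.1%) and 38 (64.4%), against 56.8% and 27.8% of all genes. The same direction was seen in animal E for 67.5% of the higher and 78% of the lower genes with counts, against 51.9%, and in animal C for 71.7% and 72.5%, against 53.8%. The 10 genes next in rank had the same direction in 10 of 10 in the P3 animal and in 6 of 7 with counts in animal E, where Car12 did not. In animal C 7 of 9 did (not Prelp and Frzb), and in animal B 4 of 6 (not Prkg2 and Car12).

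These animals are not free of doubt. The proliferative library of the P3 animal held 355 Xist and 311 Y-linked counts while its resting library held 0 and 565, and its label differs from that of animal G in 1 digit and in the side. The proliferative library of animal E is 1 of the 4 proliferative sums, although with a single zone it adds nothing to the fitted difference. No test was run on these single animals.

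**Figure D3:**
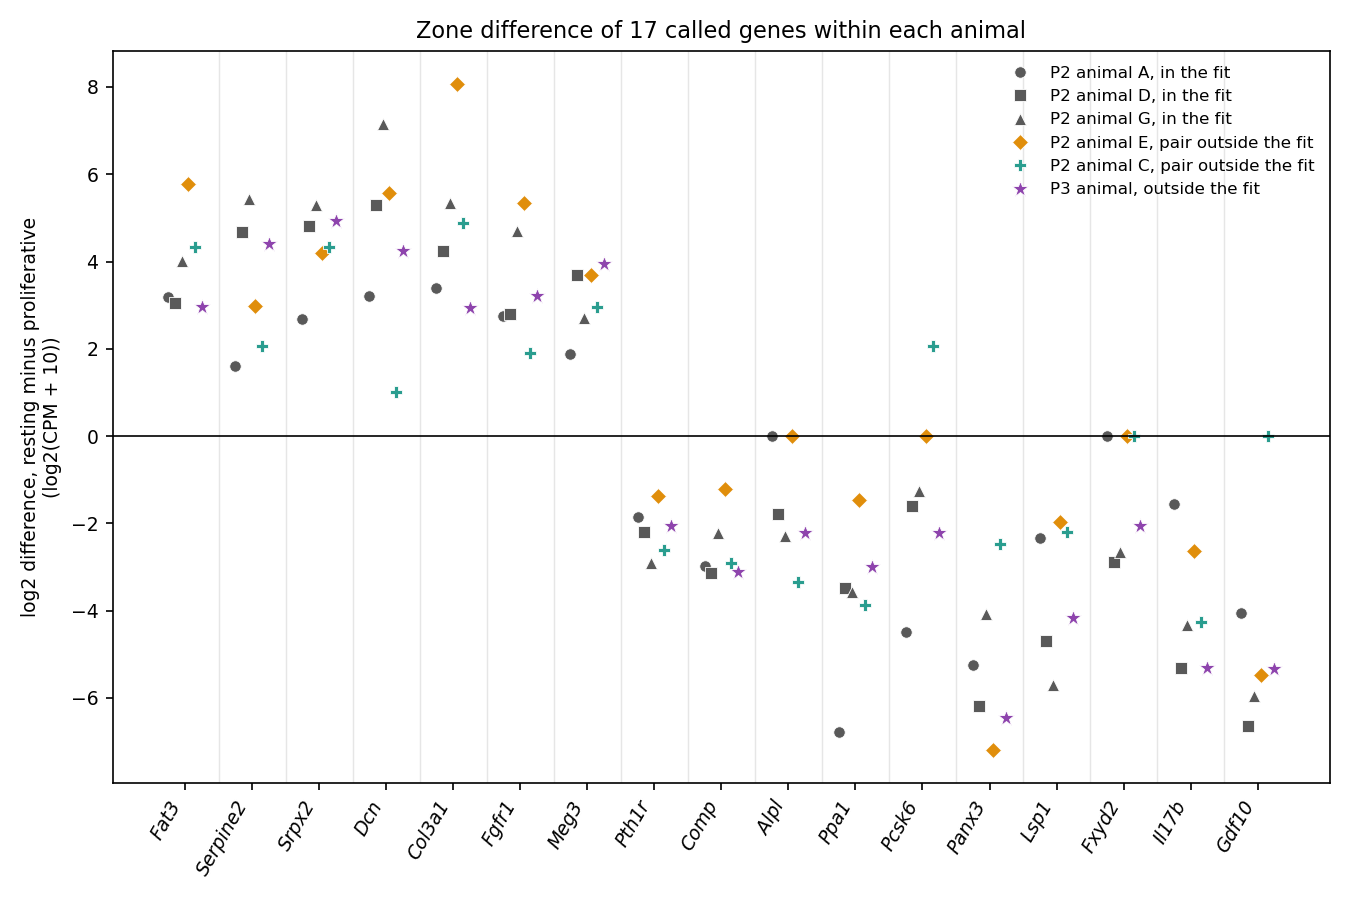
Zone difference of 17 called genes within each animal, as log2(CPM + 10) in the resting minus the proliferative zone (vertical axis), with CPM over counts outside Rn45s, Lars2 and Glra2; grey symbols are the animals of the fitted pairs and coloured symbols the pairs outside it. In the P3 animal (purple stars) all 17 lie on the side of the fitted pairs, and Pcsk6 in animal C lies on the other side.

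The zone difference at P2 was set against that at P28, where 3 animals gave both zones, in the same fit. By the interaction test 10 genes (0.144% of those tested) differed between the ages, 5 of them also called at P2. P28 animal D is in doubt: its resting sum held 0 Xist and 76 Y-linked counts, its proliferative sum 267 and 4, and its hypertrophic sum 2 and 179, so its libraries may come from more than 1 animal. Without it 12 genes were called for the difference between the ages, 6 of them among the 10 (Epyc, Gdf10, Lsp1, Mest, Pcsk6 and Samd4), and 39 genes between the zones at P2, all 18 among them. Dcn, Capn6, Fat3 and Sgms2 lost the call between the ages without it (adjusted p of 0.329, 0.0971, 0.22 and 0.0789).

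Dcn had a log2 fold change of 6.08 ± 0.99 SE at P2 and 1.07 ± 0.87 at P28 (difference 5.01 ± 1.25, adjusted p = 0.0436). Lsp1 had -6.23 ± 1.34 SE at P2 and 0.38 ± 0.91 at P28 (difference -6.61 ± 1.61, adjusted p = 0.0414), and Pcsk6 had -5.71 ± 1.32 and 1.04 ± 1.07 (difference -6.75 ± 1.69, adjusted p = 0.0436). Gdf10, at 0 counts in the resting sums at P2, had a value of -2.24 ± 1.17 SE at P28 (adjusted p of the difference 0.00857), and Fat3, at 0 counts in the proliferative sums at P2, had 1 resting and 38 proliferative counts at P28 (adjusted p of the difference 0.022).

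Epyc turned its sign between the ages, from 2.85 ± 0.86 SE at P2 to -2.85 ± 0.87 at P28 (difference 5.70 ± 1.23, adjusted p = 0.00772). Mest, an imprinted gene, had 3.13 ± 0.94 SE at P2 (adjusted p of the difference 0.0113), with few counts in a zone at P28. Capn6, a calpain-like protein that stabilises microtubules, had 1.67 ± 0.84 SE at P2 and -3.41 ± 0.93 at P28 (difference 5.07 ± 1.25, adjusted p = 0.0436). Sgms2, a sphingomyelin synthase, and Samd4, an RNA-binding repressor, were also called (adjusted p = 0.000148 and 0.00187), with at most 3 counts in a zone at P28 and their highest P2 values in animal E, which has 1 zone only. Without animal G 1 gene was called for the difference between the ages, without D 3, and 44 by DESeq2.

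For the other called genes the difference between the ages did not pass. Panx3 had -5.99 ± 0.94 SE at P2 and -5.28 ± 0.91 at P28 (difference -0.72 ± 1.16, adjusted p = 0.962), and Pth1r had -2.31 ± 0.57 and -2.37 ± 0.57 (difference 0.06 ± 0.81, adjusted p = 1). Meg3 had 2.68 ± 0.63 SE at P2 and 5.04 ± 0.72 at P28 (difference -2.35 ± 0.87, adjusted p = 0.629). The 2 ages differ in animals and in depth, and zone differences at P28 rest on sums of 108601 to 915624 counts.

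**Figure D4:**
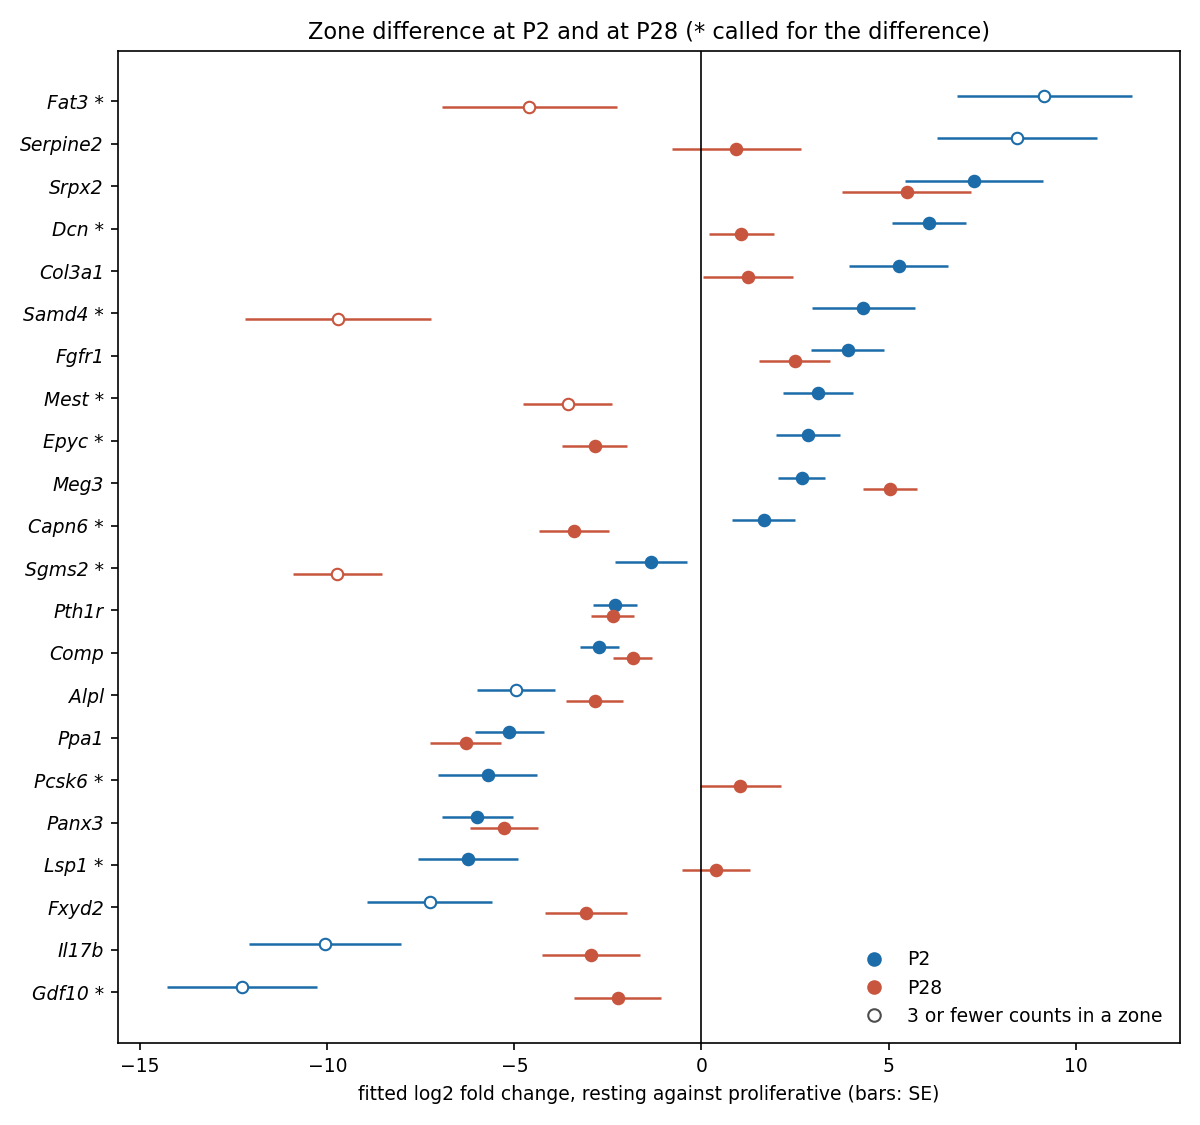
Fitted log2 fold change, resting against proliferative, with its SE (horizontal axis), at P2 (blue) and P28 (red) for the called genes without Rn45s and the genes called for the difference between the ages (starred); open symbols have 3 or fewer counts in a zone, so that their fitted size depends on the prior count. Dcn, Lsp1, Pcsk6 and Epyc have P2 and P28 values that lie apart, while those of Panx3 and Pth1r lie close.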

How the data were processed

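The authors deposited raw counts, as whole reads for each of 23420 gene symbols. The submitters' processing notes name build mm10 and the tools STAR 2.5.2b, featureCounts 1.5.3, Subread and cutadapt, per the labels. How strand and multi-mapping reads were treated, and the annotation, is not given in the sources used here, so overlapping, antisense and near-identical genes are uncertain. Columns that share a title were summed as repeat runs (5 libraries of the P2 resting and proliferative groups; chi-square per gene between runs 0.972 to 1.01). Animal labels alike except for a last digit or side letter were taken as 1 animal.

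Counts were tested with edgeR 4.0.16 in R 4.3.3: TMM, filterByExpr and robust quasi-likelihood F-tests, with Benjamini-Hochberg adjustment over 6958 genes and a threshold of 0.05. The fit covered 21 sums of 9 ethanol-fixed P2 and P28 animals in 3 zones, with animal as the block and separate zone terms at P2 and P28, and had 8 residual degrees of freedom. Zones of 1 animal are paired by the labels; deviations from group means correlated between its resting and proliferative sums by 0.184 (A), 0.18 (D) and 0.105 (G). Each SE is the fitted log2 value divided by the root of its F statistic. Where a zone held 0 counts, folds are bounds with 3 counts over the group, pooled over all sums of each zone without pairing. Such a bound does not apply to a single animal. With 1 to 3 counts, pooled ratios are given with 95% exact intervals, covering counting error only. With the animal as block, p-values measure how zone differences vary among the animals with more than 1 zone, P2 and P28 together. They do not measure the spread of levels between animals.

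Named were all called genes, the 10 next by p with 1 direction in every pair, up to 4 members by p of each of 38 lists, key genes and genes called for the difference between the ages. Members and lists were chosen with earlier results of these data known, so list counts are no independent evidence. Alternatives were other scaling (RLE), DESeq2 1.42.0, no filter, no block, other library minimums, other sample sets and leaving out each animal. Gene positions and promoters are from RefSeq on GRCm38.p6. The fit was also run on simulated counts with known changes, drawn with 1 spread for all genes and no animal effect. That setting cannot check the pairing, and no result here rests on it. Xylene libraries were not used.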

Additional observations from a re-analysis of the deposited data

Results flagged for a closer look

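Among 85 groups of 4 sums checked, 16 had a highest value standing far from the other 3. The rule sets apart about 1 in 20 groups of normally distributed values, which these counts are not. A group with 3 sums at 0 counts and 1 above 0 is always flagged, however small that value. The 16 can therefore not be set against that share. In the resting sums these were Panx3 in animal G (24.9 CPM), Lsp1 in A (21.9), Fxyd2 in G (0.179), Pcsk6 in F (123.7), Pdk4 in F (50.6) and Samd4 in F (331). In the proliferative sums they were Pcsk6 in animal A (75.2 CPM), Col3a1 in D (35.3), Srpx2 in D (4.15), Serpine2 in E (6.78), Vcan in A (6.84), Pdk4 in A (355.7), Ihh in D (3.11), Clu in A (6.84), Sgms2 in E (1234) and Samd4 in E (603.4). The values of Fxyd2, Serpine2, Vcan and Clu are 1 count each, and animal G, whose resting sum holds both Xist and Y-linked counts, gives 2 of the 16.

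For 10 genes the zone effect differed between P2 and P28 by the interaction test, as log2 at P2 minus log2 at P28. These were Sgms2 (8.38), Samd4 (14.05), Epyc (5.70), Gdf10 (-10.05), Mest (6.70), Fat3 (13.76), Lsp1 (-6.61), Capn6 (5.07), Dcn (5.01) and Pcsk6 (-6.75). The sizes for Samd4, Sgms2, Mest, Fat3 and Gdf10 depend on the prior count, since a zone at 1 of the ages holds 3 counts or fewer.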

How the results depend on the processing

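Of 406 alternative values of the 18 called genes, 310 kept direction and call, 95 lost the call and 1 reversed; Gdf10 and Panx3 (2 of 18) were called in all 9 fits that left out an animal. The count of 18 became 33 with DESeq2 (13 higher, 20 lower; 16 shared), 11 with no replicate block, 37 with P2 sums only, 32 with the paired sums only, 29 with the minimum taken without Rn45s, Lars2 and Glra2, and 46 with the P3 animal added (15 shared). It ranged from 5 to 39 when 1 animal was left out, with 39 without P28 animal D. The count of 10 between the ages became 2 with RLE scaling, 5 with no filter, 44 with DESeq2, 3 with no replicate block, 3 and 4 at minimums of 50000 and 20000 counts, 95 with the minimum taken without the 3 symbols, 5 after thinning and 6 with deposit set A only, and ranged from 1 to 12 when 1 animal was left out. Causes were not tested.

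Reversed log2 fold changes were, with no replicate block, Pcsk6 (0.56), Col2a1 (1.02), Mki67 (0.46), H19 (0.10) and Samd4 (-0.20); at the minimums of 50000 and 20000 counts, Col2a1 (0.055 and 0.20) and Sox9 (0.017 and 0.14); with the minimum taken without the 3 symbols, Col2a1 (0.35). Igf2 reversed with RLE (-0.0690), DESeq2 (-0.0684), paired sums (-0.0502), thinning (-0.0461), P3 added (-0.0761) and set A only (-0.0934). When 1 animal was left out, values ranged from -0.10 to 0.094 for Igf2, from -3.31 to 0.058 for Ihh, from -0.35 to 0.41 for Col2a1, from -2.59 to 0.45 for Col10a1 and from -2.59 to 0.045 for Sgms2. Of these genes Pcsk6 alone had been called between the zones at P2. Deposit set A holds the libraries with 1 run, and set B, with 2 runs, could not be fitted alone. Depth limits genes under about 10 CPM in animals A and E, where 1 count is 2.73 to 6.84 CPM.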
